A study of Mus musculus with 6 samples.

Results

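The genes described here encode the proteins of the cytosolic ribosome, the particle that makes protein from mRNA. They were taken by symbol from the deposited gene tables: the Rps and Rpl series, Rplp0, Rplp1, Rplp2, Rpsa and Fau, without rows named as pseudogenes, and with at least 40 counts summed over the libraries. Of the 47561 rows, 90 matched and 87 met the minimum. Of these, 78 encode subunit proteins, 32 of the small and 46 of the large subunit, and 9 are copies: Rps27rt, Rps27l, Rpl36al, Rpl37rt, Rps4l, Rpl6l, Rpl3l, Rps3a2 and Rps3a3. The rows just under the minimum were Rpl39l with 36 counts, Rpl32l with 28 and Rpl10l with 0, and those just above it were Rps3a3 with 305, Rpl3l with 526 and Rps3a2 with 553.

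The RNA was that of neutrophils sorted by flow cytometry from the bone marrow of wild-type male mice, in 6 libraries. The Control group held 3 of them, and the other 3 came from mice under chronic unpredictable mild stress (CUMS), a schedule of varied mild stressors given over 4 weeks. The sources used here do not give the age of the mice, the markers of the sort, the strand setting of the kit or the number of animals behind a library. The p-values therefore measure only the spread between these libraries, which may be technical. Values are estimated counts, about 4 per read pair, which summed to 78845457 to 109757558 per library. Levels are CPM, each gene's share of its library's counts on the usual per-million scale, after scaling between libraries, and fold changes are CUMS over Control on the log2 scale with their SE.

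Each ribosome carries most of its proteins once, so their mRNAs are made in related amounts, and many of these mRNAs begin with a terminal oligopyrimidine (TOP) tract, a run of C and T bases at the transcript's first base through which mTOR and Larp1 control translation. Ribosomal protein mRNAs have also been copied back into mammalian genomes many times as intronless retrocopies. Most are regarded as pseudogenes, but a few are annotated as genes of their own, and a read from such a copy can look the same as a read from its parent.

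Rps27rt and Rps27 show how close a copy can be, and their sequences bear on every value given for them below. Rps27 (mm10 chr3:90212522-90213651, minus strand, 4 exons) encodes a zinc-finger protein of the small subunit. Rps27rt (chr9:114982366-114982739, minus strand) is annotated as a protein-coding gene of 1 exon within an intron of Osbpl10, which lies on the opposite strand and was listed at 0 counts in all 6 libraries (a 0 allows up to 3 read pairs, or 12 counts, per library, for counting error only). Rps27l (chr9:66946086-66949516, plus strand, 4 exons) is a paralogue with introns, known as a target of p53. The coding sequence from GENCODE, with its stop codon, is printed once for Rps27 and Rps27rt because all 255 bases are the same, and in Rps27l the 61 bases that differ from Rps27 are in capitals.
Rps27 and Rps27rt: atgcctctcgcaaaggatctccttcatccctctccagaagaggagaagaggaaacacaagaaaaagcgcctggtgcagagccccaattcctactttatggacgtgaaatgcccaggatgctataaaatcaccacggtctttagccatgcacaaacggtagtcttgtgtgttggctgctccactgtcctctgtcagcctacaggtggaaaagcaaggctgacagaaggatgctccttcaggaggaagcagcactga
Rps27l: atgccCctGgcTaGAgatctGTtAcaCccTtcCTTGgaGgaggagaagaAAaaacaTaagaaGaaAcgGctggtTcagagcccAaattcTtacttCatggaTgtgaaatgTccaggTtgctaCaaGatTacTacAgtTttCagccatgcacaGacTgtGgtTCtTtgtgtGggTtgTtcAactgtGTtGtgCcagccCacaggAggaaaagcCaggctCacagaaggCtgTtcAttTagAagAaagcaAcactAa
The identity between Rps27 and Rps27rt runs past the coding sequence, over 341 bases of transcripts that are 345 and 374 bases long. Of the 225 windows of 150 bases, the read length, in the Rps27rt transcript, 196 also occur in Rps27 and 29 do not. Rps27l is 76.1% identical to Rps27 in its coding sequence, with no identical run longer than 11 bases.

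The starts of these genes were compared with those of the members most abundant per length, Rps9 and Fau. Each window below is RefSeq sequence on GRCm38.p6, 10 bases before the annotated start and 20 from it, and capitals mark the longest run of C and T that begins with C at or near the start.
Rps9 (chr7:3704031-3704060, plus strand): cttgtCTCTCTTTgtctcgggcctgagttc
Fau (chr19:6057937-6057966, plus strand): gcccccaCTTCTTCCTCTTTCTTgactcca
Rps27 (chr3:90213629-90213658, minus strand): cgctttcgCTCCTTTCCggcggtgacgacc
Rps27rt (chr9:114982720-114982749, minus strand): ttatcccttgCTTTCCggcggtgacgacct
Rps27l (chr9:66946076-66946105, plus strand): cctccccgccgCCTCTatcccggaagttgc
RefSeq lists a second start for Rps27l (chr9:66946403-66946432 for the same window), which has no such motif. Rps27rt and Rps27 share the stretch from inside the pyrimidine run onward. A C followed by 4 bases that are each C or T, on the sense strand, stood exactly at the annotated start in 15 of the 63 members with a RefSeq entry (23.8%), against 2.96% of the 26962 other genes of the table. Allowing the motif to begin within 5 bases of the start gave 30 members (47.6%) and 21.1% of the other genes. These are matches of letters at annotated starts, which can lie some bases from the real ones.

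The members took a small share of the RNA. They held 0.471%, 0.465% and 0.442% of counts in the Control libraries and 0.514%, 0.439% and 0.440% in the CUMS libraries. The highest and the lowest of the 6 shares were both CUMS libraries, and the groups overlapped. The mean was 0.459% ± 0.0154 in Control libraries and 0.464% ± 0.0429 in those of CUMS (SD, n = 3 each, exact two-sided permutation p = 1.0, where 0.1 is the smallest p possible). S100a8, a calcium-binding protein that neutrophils carry in very large amounts, alone stood at 11997 to 19775 CPM, against 4332 to 5235 CPM for all 87 members together. In such sorted bulk samples, fewer cells of a type and less RNA per cell cannot be told apart.

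Levels per length differed widely between subunit genes, although their proteins are needed in near equal numbers. Over the 6 libraries the mean CPM per kilobase of transcript ran from 4.12 to 555 among the 78 genes, with a median of 63.4. Rps9, a small subunit protein that binds rRNA early in assembly, was highest on this scale at 555 and supplied 9.04% of all member counts. Its levels were 427, 421 and 394 CPM in Control and 450, 401 and 408 CPM in CUMS, and the groups overlapped (log2 fold change 0.02 ± 0.05). Fau, which makes a ubiquitin-like protein fused to a small subunit protein, came next at 409 CPM per kilobase, and Rpl9, a protein of the large subunit near its factor-binding site, followed at 262. Rps14 and Rps25, both of the small subunit, had 186 and 177. The lowest value belonged to Rps20, whose coding transcript in the annotation is 3706 bases long and so sets its level per length low.

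Levels were also divided by the length of the coding sequence. Only the length leaves untranslated ends aside here, since their counts stay in the row. Per kilobase of coding sequence Rps9 was again the highest at 712 CPM. The 78 genes spanned 12.9 to 712, with a median of 93.9. Rpl41, the shortest ribosomal protein, then stood second at 685. Rpl21, at 12.9, was lowest on this scale. Its own row held 7.61% of the counts found at Rpl21 and its near-identical copies, so its level is that of 1 row among many.

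**Figure D1:**
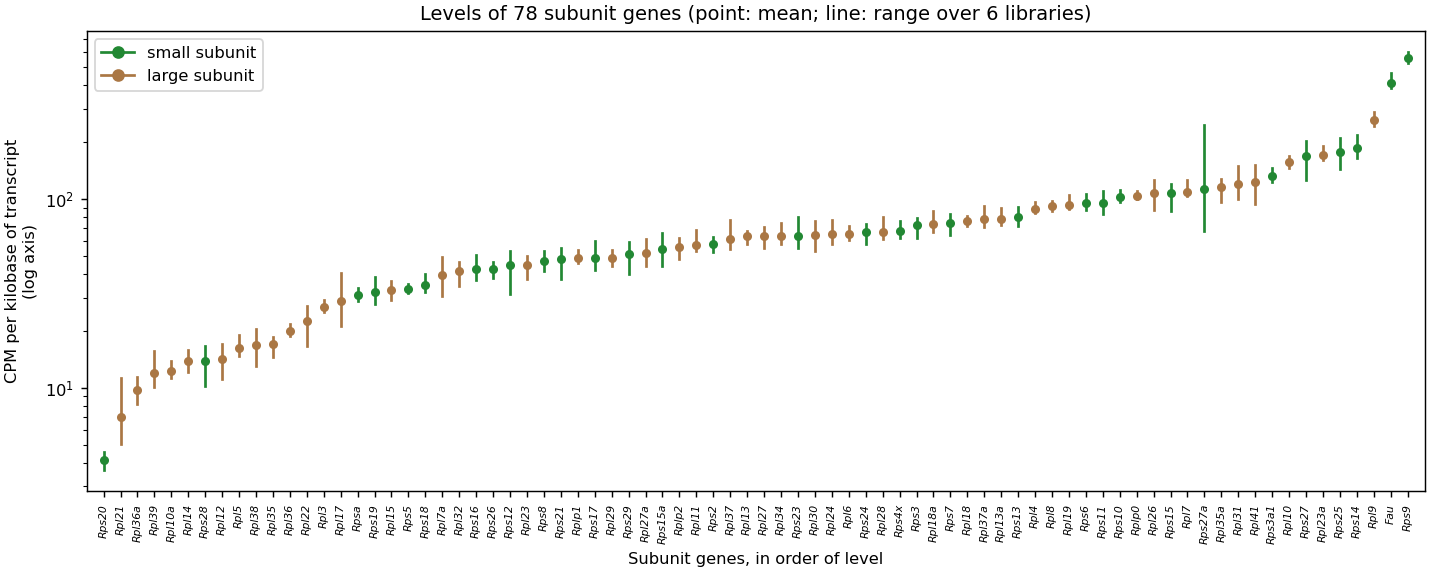
Level of each of the 78 subunit genes in CPM per kilobase of transcript (vertical log axis), in order of level; each point is the mean and each line the range over 6 libraries, green for the small and brown for the large subunit. Rps9 and Fau stand above the rest at 555 and 409, and the long line at Rps27a spans its CUMS libraries.

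Few ribosomal protein genes differed between the groups. Of the 87 members, all of which entered the edgeR fit, 1 passed an adjusted p of 0.05 (1.15%): Rps27rt, which was higher in CUMS. Across all 15778 genes tested, 710 passed (4.5%), 372 of them higher (2.36%) and 338 lower (2.14%). Of the 78 subunit genes 0 passed in edgeR, 3 had an unadjusted p under 0.05, and DESeq2 called 1, Rpl17. Over the 87 members that number was 4, namely Rps27rt, Rps27a, Rpl17 and Rps2, against 16.9% of all genes tested. The median log2 fold change was -0.01 over the members and -0.01 over all genes tested, and 78 of 87 members lay within 0.2 of zero. The median SE of a member was 0.10 on the log2 scale, which sets the size of difference these libraries could resolve. The groups did not overlap in 4 members (Rps27rt, Rps2, Rpl6l and Rpl10a), against 22.9% of all genes tested.

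**Figure D2:**
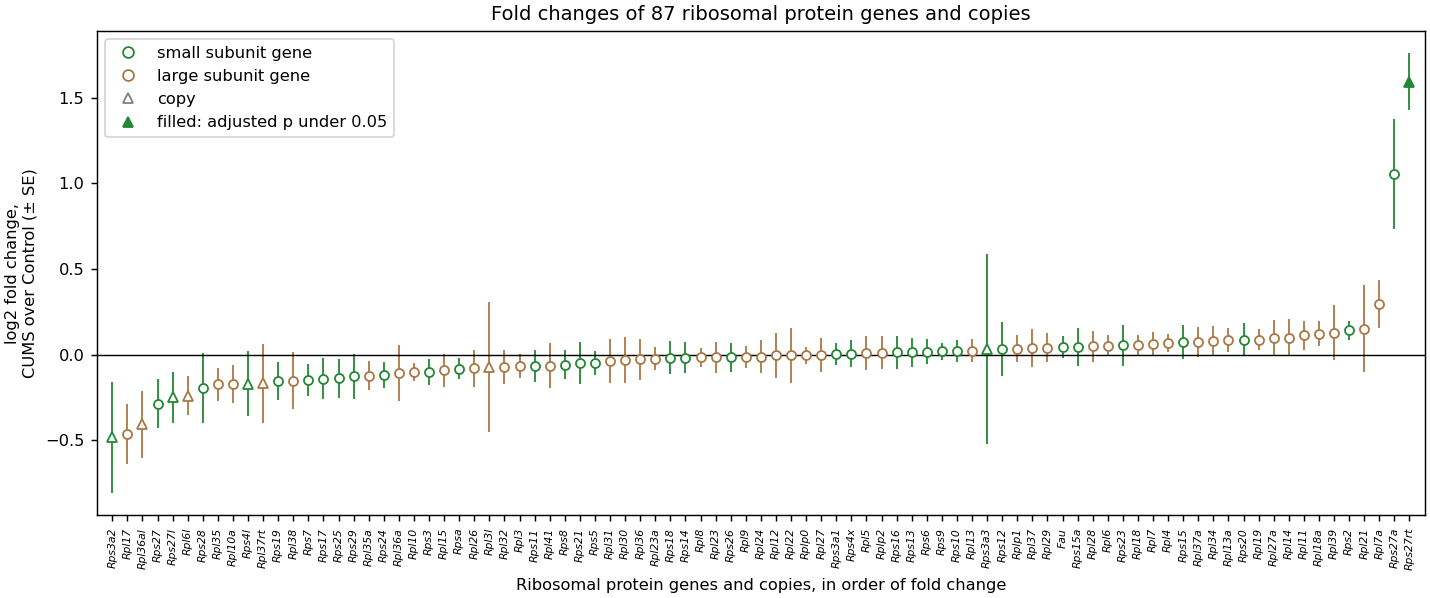
Log2 fold change of CUMS over Control for the 87 members, ordered by size, with the SE as a vertical line; circles are subunit genes, triangles copies, and the filled symbol passed an adjusted p of 0.05. Rps27rt at 1.59 and Rps27a at 1.05 stand apart, and 78 members lie within 0.2 of zero.

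CUMS replicate 1 stood apart from the other libraries. In it 55 of the 78 subunit genes had their highest level of the 6 libraries and 0 their lowest. The lowest levels fell mostly in CUMS replicate 3 (27 genes), CUMS replicate 2 (25) and Control replicate 3 (22). These counts were taken over the subunit genes alone, and whether other genes were spread likewise was not tested. Relative to each gene's own mean, the median subunit gene deviated by 0.16 in CUMS replicate 1, by -0.09 in each of CUMS replicates 2 and 3, and by 0.05, 0.01 and -0.05 in the Controls, on the log2 scale. The same library also had the highest summed level of 18 erythroid markers, 3028 CPM against 2541 and 2547 CPM in the other CUMS libraries and 1318 to 1891 CPM in Control. Its S100a8 level of 19775 CPM was close to those of the Controls (18772 to 19676 CPM), and CUMS replicates 2 and 3 were lower at 11997 and 13583 CPM. The part of these differences in the ribosomal protein values was not tested.

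Without CUMS replicate 1, 3 members passed the threshold in edgeR: Rps27rt was higher and Rps25 and Rps27 were lower. The background in that fit was 4.2%. In it 25 of the 87 members had an unadjusted p under 0.05, against 2975 of 16603 genes tested (17.9%). The median over members was -0.09, and the median over all genes in that fit is not given here. Leaving out Control replicate 2 instead also gave 3 members, Rps27rt and Rpl7a higher and Rpl17 lower (background 2.11%), and leaving out CUMS replicate 2 gave 2, Rps27rt and Rps27a, both higher (background 2.17%). Rps27rt and Rps27a were likewise the 2 members called among genes with a mean of at least 1 CPM (background 7.92%) and with the values divided by 4 (background 6.96%), and DESeq2 called Rps27rt and Rpl17 (background 10.7%).

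**Figure D3:**
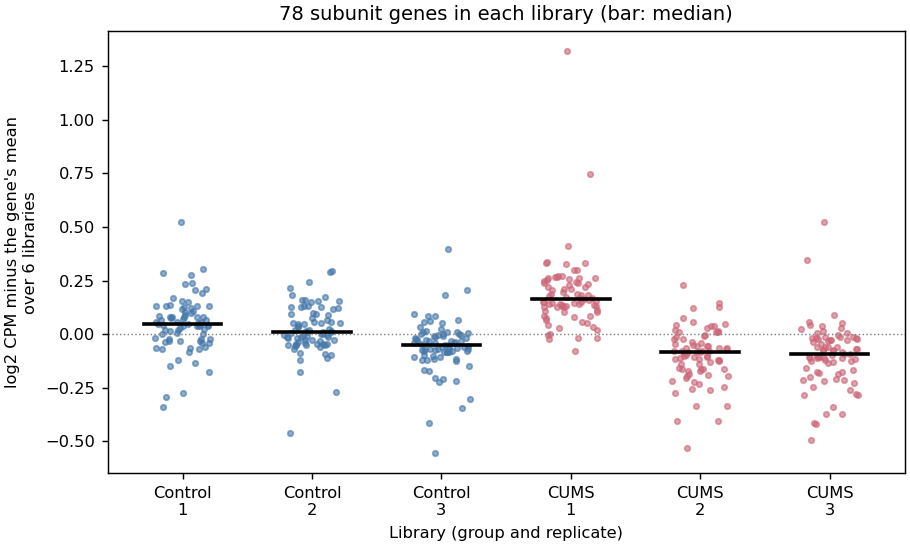
Log2 CPM of each of the 78 subunit genes minus that gene's mean over 6 libraries, by library; points are genes and the black bar is the median. The median is 0.16 in CUMS replicate 1 and -0.09 in CUMS replicates 2 and 3, and the Control libraries lie between.

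The counts at the Rps27rt row were higher in CUMS. This row had 293, 469 and 523 counts in Control replicates 1 to 3 and 1297, 1481 and 1607 in CUMS replicates 1 to 3. Every CUMS library was above every Control library. Levels were 4.81 CPM ± 1.24 in Control and 14.5 CPM ± 1.09 under CUMS (SD over 3 libraries), which is a log2 fold change of 1.59 ± 0.17, or 3.02-fold (edgeR adjusted p = 3.1e-04). In the 12 other settings and sets of libraries in which its row stood alone, the fold change lay between 1.45 and 1.81 and the adjusted p between 1.57e-18 and 0.0040.

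Its parent Rps27 did not pass the test. Rps27 had 5276, 7221 and 4619 counts in Control and 5648, 4802 and 5079 in CUMS, and its groups overlapped. The means were 63.8 CPM ± 8.27 and 52.4 CPM ± 12.8 (log2 fold change -0.29 ± 0.14, edgeR adjusted p = 0.34). With the rows of Rps27 and Rps27rt added, the pair stood at 71.0, 74.4 and 60.6 CPM in Control and 82.5, 56.5 and 61.8 CPM in CUMS, and the log2 fold change was -0.04 ± 0.12 (edgeR adjusted p = 0.93). Rps27rt made up 5.26%, 6.10% and 10.2% of that sum in Control and 18.7%, 23.6% and 24.0% in CUMS, with no overlap (exact permutation p = 0.1, adjusted p = 0.28 over 11 pairs). The share of the copy thus separated the groups, while the sum did not. Reads from the 196 windows common to both transcripts could not be assigned to either row from these tables.

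Rps27l, the paralogue whose sequence differs in 61 coding bases and so can be told from Rps27, had 662, 791 and 531 counts in Control and 552, 758 and 590 in CUMS. The groups overlapped (log2 fold change -0.25 ± 0.15, edgeR adjusted p = 0.45).

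Rps27a, which makes a fusion of ubiquitin with a small subunit protein and is thus a source of free ubiquitin, was the other member whose row stood apart, and it too has a near-identical copy. The Rps27a row had 4026, 4724 and 3635 counts in Control and 13210, 4838 and 9779 in CUMS. CUMS replicates 1 and 3 stood far above the Controls, while CUMS replicate 2 lay within their range in CPM (43.5 against 42.8 to 51.3). The log2 fold change was 1.05 ± 0.32 (edgeR adjusted p = 0.099), and it passed the threshold without CUMS replicate 2 (1.41, adjusted p = 0.0041).

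The processed pseudogene Rps27a-ps2, 99.8% identical to Rps27a over 467 bases, went the other way. Its row had 4330, 5585 and 4584 counts in Control and 2395, 5158 and 3568 in CUMS, and every CUMS library was lower in CPM than every Control library (54.0 to 55.2 against 28.4 to 46.4). The fold change was -0.60 ± 0.14 (edgeR adjusted p = 0.029). Added over Rps27a and all its copies, levels were 107, 100.1 and 97.0 CPM in Control and 186, 90.2 and 124 CPM in CUMS, a log2 fold change of 0.39 ± 0.18 that did not pass (edgeR adjusted p = 0.30). CUMS replicate 1 alone remained well above all other libraries in this sum. Clhc1 overlaps Rps27a on the opposite strand and had at most 4 counts in any library.

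**Figure D4:**
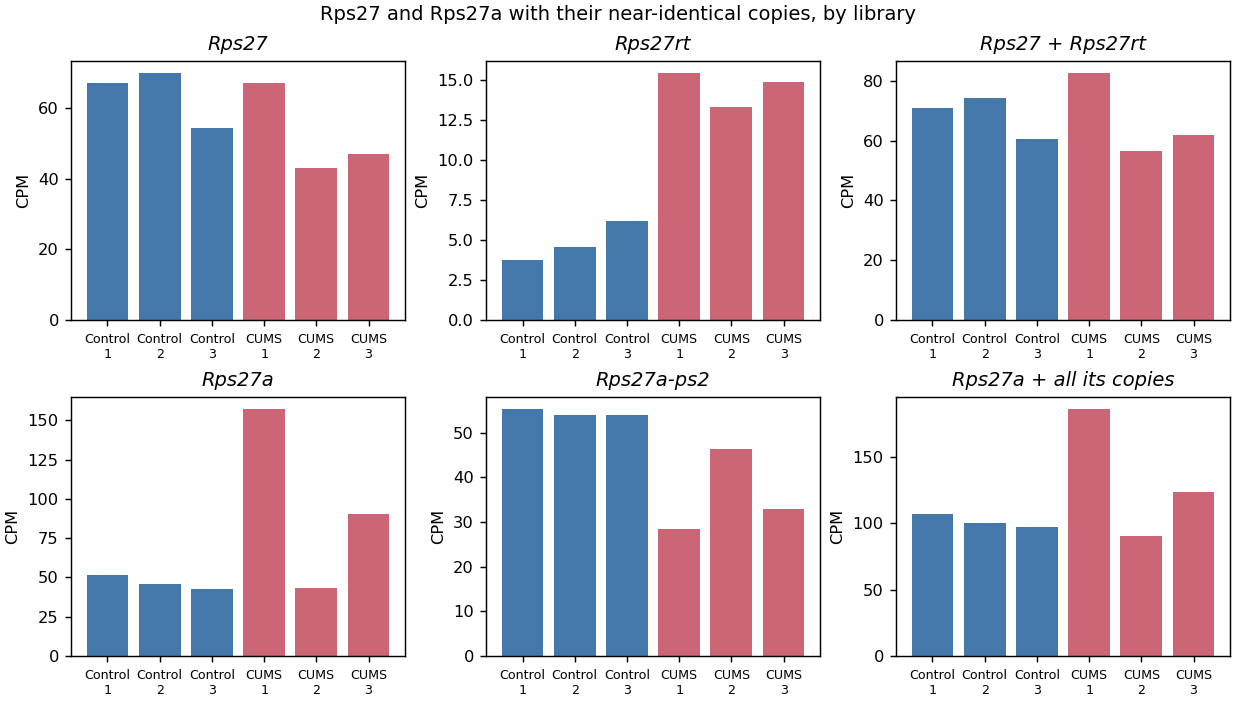
Level in CPM (each panel has its own axis, from 0) in Control libraries (blue) and CUMS libraries (red) for Rps27, Rps27rt and their sum, and for Rps27a, Rps27a-ps2 and the sum of Rps27a with all its copies. Rps27rt is higher and Rps27a-ps2 lower in every CUMS library than in every Control library, while both sums overlap between groups.

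For every other member the row was set beside its copies in the same way. A copy here is an annotated pseudogene at least 95% identical over at least 150 bases, or a row named as a pseudogene of the member. Retrocopies compared with their parents as pairs below were also added, whatever their identity. Rpl36al entered the Rpl36a family in that way, at 87.9% identity over the coding sequence, and was the copy row with the most counts there. The 80 families so formed took in 532 further rows. The member's own row held a median of 93.5% of its family's counts, over 90% in 49 families and under 50% in 5: Rpl21 (7.61%), Rpl17 (21.3%), Rpl7a (27.7%), Rpl36a (39.1%) and Rps12 (49.7%). With families summed, 0 of 80 passed in edgeR and 0 had an unadjusted p under 0.05 (4.59% of all genes in that fit passed). DESeq2 was not run on the summed families. Their log2 fold changes ran from -0.32 for Rpl36a with its copies to 0.39 for Rps27a. Of the rows named as ribosomal protein pseudogenes, 164 of 226 had counts and 87 were tested, of which 0 were higher and 2 were lower in CUMS, Rps27a-ps2 and Rpl19-ps11 (log2 fold change -1.49 ± 0.27, edgeR adjusted p = 0.010).

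Rpl17, a protein that lines the exit tunnel of the large subunit, had the lowest log2 fold change of the 78 subunit genes. It stood at 31.3, 18.1 and 28.7 CPM in Control and 22.03, 18.2 and 16.4 CPM in CUMS. Control replicate 2 lay within the CUMS range, so the groups overlapped (log2 fold change -0.46 ± 0.17, edgeR adjusted p = 0.19, DESeq2 adjusted p = 0.039). The pseudogene row Rpl17-ps10, 99.3% identical over 555 bases, stood at 41.1, 52.98 and 38.3 CPM in Control and 59.7, 47.7 and 49.1 CPM in CUMS, and its highest Control value was in replicate 2, where Rpl17 itself was lowest among Controls. Summed over the family, the log2 fold change was 0.04 ± 0.07.

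Rpl7a, a large subunit protein, had the next highest log2 fold change of the subunit genes after Rps27a. Its row stood at 28.1, 41.3 and 28.0 CPM in Control and 35.2, 39.3 and 45.2 CPM in CUMS (log2 fold change 0.30 ± 0.14, edgeR adjusted p = 0.31). Again Control replicate 2 lay among the CUMS libraries. Summed with 37 further rows, Rpl7a had a log2 fold change of 0.03 ± 0.06. Among those rows, the pseudogenes Rpl7a-ps11 and Gm8226 had nearly equal counts in every library, such as 3008 and 3032 in Control replicate 1 and 3011 and 2984 in CUMS replicate 3. Whether the same reads were counted at both rows, and so more than once in the sum, was not tested.

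Rps2, a small subunit protein at the mRNA entry channel, was the subunit gene with a higher level in every CUMS library than in every Control library. Its level was 52.0, 57.3 and 55.3 CPM in Control and 59.0, 62.9 and 59.8 CPM in CUMS (log2 fold change 0.14 ± 0.06, edgeR adjusted p = 0.21). With its copies added the log2 fold change was 0.09 ± 0.05.

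Of the other 8 copies 0 passed in edgeR, 0 had an unadjusted p under 0.05, and 0 were called by DESeq2, which gave 3 of them no adjusted p. Over all genes tested in edgeR, 4.5% passed and 16.9% had an unadjusted p under 0.05. DESeq2 called 10.7% of all genes that it gave an adjusted p. With 8 copies, counts of 0 do not tell them from other genes. Rpl36al, a gene for a large subunit protein closely related to that of the X-linked Rpl36a, supplied more counts than Rpl36a in every library. Its share of the pair was 63.3%, 56.3% and 64.4% in Control and 59.3%, 52.5% and 56.1% in CUMS, with overlap (exact permutation p = 0.2). Its level overlapped between groups as well (9.44, 6.54 and 7.19 CPM in Control, 7.36, 4.46 and 5.67 CPM in CUMS, log2 fold change -0.41 ± 0.19, edgeR adjusted p = 0.32). Gm49383, a coding gene annotated on the same strand, overlaps Rpl36al.

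Rpl6l and Rpl37rt, annotated as processed pseudogenes of Rpl6 and Rpl37, contributed 8.71% ± 0.589 and 12.5% ± 1.65 of their pairs in Control and 7.23% ± 0.336 and 10.8% ± 1.85 in CUMS. For Rpl6l the groups did not overlap (exact permutation p = 0.1, adjusted p = 0.28 over 11 pairs), and for Rpl37rt they did. Rps4l, an intronless copy of the X-linked Rps4x, stayed at 3.94% to 6.52% of its pair over the 6 libraries. Rpl3l, the paralogue known from striated muscle, stayed at 1.63% to 3.23%. The shares of Rps3a2 and Rps3a3, processed pseudogenes of Rps3a1, were under 1% in every library. Of the 11 pairs compared, which include Rpl22 with Rpl22l1 and Rpl7 with Rpl7l1, 4 had no overlap in share between groups: Rps27rt, which was higher in CUMS, and Rpl6l, Rps3a2 and Rpl22l1, which were lower. The smallest adjusted p the 11 exact tests gave was 0.28. In level, 22.9% of all genes tested had no overlap between groups.

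**Figure D5:**
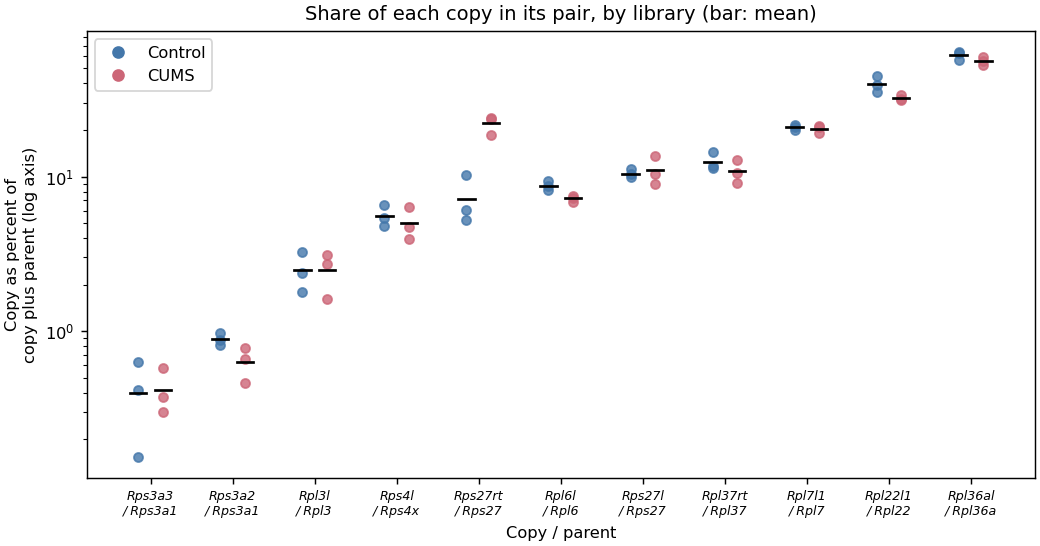
Share of each copy in the sum of copy and parent, in percent on a log axis, for 11 pairs in order of mean share; points are libraries (blue Control, red CUMS) and bars are group means. Rps27rt moves from a mean of 7.18% to 22.1%, and no other pair's means differ by as much.

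By role, neither the subunits nor the smaller groups below held a gene past the threshold in edgeR. Over all genes tested 4.5% passed, 16.9% had an unadjusted p under 0.05, and DESeq2 called 10.7% of those it gave an adjusted p. The summed level of small subunit genes was 2310, 2265 and 2123 CPM in Control and 2571, 2058 and 2115 CPM in CUMS, and that of large subunit genes 2384, 2348 and 2252 CPM and 2613, 2232 and 2199 CPM. Both subunits were highest in CUMS replicate 1. The log2 ratio of large to small was 0.061 ± 0.021 in Control and 0.065 ± 0.047 under CUMS (SD over 3 libraries, exact permutation p = 0.8). Of the 32 small and 46 large subunit genes, 0 passed in either direction in edgeR (2 and 1 with an unadjusted p under 0.05), with medians of -0.02 and 0.00. DESeq2 called Rpl17 and 0 of the other subunit genes.

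The P stalk, through which the large subunit binds elongation factors, had 4 genes with close levels in both groups. Rplp0, which anchors the stalk, stood at 146, 138 and 141 CPM in Control and 150, 135 and 139 CPM in CUMS. Log2 fold changes were 0.00 for Rplp0, 0.04 for Rplp1, 0.01 for Rplp2 and 0.00 for Rpl12, with SE of 0.05 to 0.13. Rps6, the protein that S6 kinase phosphorylates downstream of mTOR, had levels of 87.5, 83.9 and 76.7 CPM in Control and 93.2, 79.9 and 78.3 CPM in CUMS (log2 fold change 0.02 ± 0.07).

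Loss of a single copy of some of these genes causes Diamond-Blackfan anaemia, in which red cell precursors fail. Of 16 such genes 0 passed in edgeR and 0 had an unadjusted p under 0.05. Their median was -0.11, with 12 below and 4 above zero. Over all 15778 genes tested, 4.5% passed and 16.9% had an unadjusted p under 0.05. The median of all genes was -0.01, with 8135 below and 7643 above zero. With 16 genes, counts of 0 do not tell them from other genes. Rps19, the gene most often affected in that disease, stood at 24.5, 20.01 and 19.8 CPM in Control and 22.2, 18.1 and 17.6 CPM in CUMS, with overlap (log2 fold change -0.15 ± 0.11, edgeR adjusted p = 0.57). Rpl11, which with Rpl5 and the 5S rRNA restrains the p53 ligase Mdm2, had the largest positive value of these genes at 0.11 ± 0.08, and Rpl5 was at 0.01 ± 0.10. Among 7 genes whose proteins are described as binding Mdm2, 0 passed (range -0.25 to 0.11).

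Other genes of translation were set against the same all-gene shares, in edgeR 4.5% called and 16.9% at an unadjusted p under 0.05. DESeq2 called 10.7% of all genes that it gave an adjusted p. Rack1, a scaffold protein on the head of the small subunit, had a log2 fold change of -0.10 ± 0.07. Rpl22l1, the paralogue whose mRNA Rpl22 is known to repress, was at 6.92 CPM ± 0.403 in Control and 5.04 CPM ± 0.262 in CUMS without reaching the threshold (log2 fold change -0.46 ± 0.13, edgeR adjusted p = 0.071), and Rpl22 itself was at 0.00 ± 0.16. DESeq2 called Rpl22l1. A list of 24 other TOP transcripts held mRNAs, such as those of elongation factors, and host genes of small nucleolar RNA. Of these 1 fell, Nap1l1, a histone chaperone (-0.33 ± 0.08, edgeR adjusted p = 0.041), and 0 rose. In the same list 5 genes had an unadjusted p under 0.05, and DESeq2 called 3, all with negative fold changes: Nap1l1, Eif3e, a subunit of an initiation factor (-0.42 ± 0.12 in edgeR), and Snhg8, a host gene of small nucleolar RNA (-0.55 ± 0.15 in edgeR). Eef1a1 and Eef2, which deliver tRNA and move the ribosome along, were at 0.01 ± 0.04 and 0.11 ± 0.04, and neither passed. Of 18 genes of mTOR and TOP control 0 passed, with 6 at an unadjusted p under 0.05 and 0 called by DESeq2. Larp1, which binds TOP mRNAs, had -0.22 ± 0.07 and an edgeR adjusted p of 0.13. A mixed list of 15 genes held those of ribosome surveillance and others, such as Mdm2, Trp53, Eif6, Sbds and Efl1. Of these 0 passed (1 at an unadjusted p under 0.05, and 0 in DESeq2, with no adjusted p for 3 of them). Of 77 mitochondrial ribosomal protein genes 1 fell in edgeR, Mrpl58 (-0.68 ± 0.17, adjusted p = 0.044), 9 had an unadjusted p under 0.05, and DESeq2 called 2, Mrpl58 and Mrpl45.

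Some cell markers, those of neutrophils among them, differed between the groups in edgeR. Over all genes, edgeR called 4.5% and gave 16.9% an unadjusted p under 0.05, and DESeq2 called 10.7% of those it gave an adjusted p. Of 18 erythroid markers 8 were higher and 0 lower in CUMS, with summed levels of 1318 to 1891 CPM in Control and 2541 to 3028 CPM in CUMS, and 0 of the 18 were at 0 counts in all libraries. Hba-a1 went from 439 CPM ± 76.6 to 736 CPM ± 70.8. Of 20 genes of dividing cells 12 were lower and 0 higher, with summed levels of 519 to 553 CPM against 370 to 389 CPM. The neutrophil markers summed to 123309 to 134748 CPM in Control and 104530 to 130725 CPM in CUMS, and 3 of 13 were higher (Elane, Mpo and Mmp9) and 2 lower (Ltf and Camp). Elane and Mpo were low, with means of 0.454 and 3.42 CPM in Control and 2.13 and 6.95 CPM in CUMS. Mmp9 stood at 8571 and 9306 CPM. Of the B cell (14), monocyte (14) and eosinophil or basophil (10) markers tested, edgeR called 1, 2 and 2, all of them higher. The eosinophil or basophil list was split, with 5 positive and 5 negative log2 fold changes, from -1.58 for Ms4a2 to 3.68 for Epx. Its 2 calls were Prg2 and Epx. DESeq2 called 8 of the erythroid, 15 of the dividing-cell, 5 of the neutrophil, 2 of the B cell, 2 of the monocyte and 2 of the eosinophil or basophil markers, the last including Gata2, which was lower (-1.52 ± 0.39, edgeR adjusted p = 0.053). Of those of plasma cells (6), T and NK cells (4) and progenitors (7), 0 passed in edgeR, 0 had an unadjusted p under 0.05 and 0 were called by DESeq2, which gave 4, 3 and 4 of them no adjusted p. The groups did not overlap in the summed erythroid, dividing-cell, plasma cell and eosinophil or basophil markers, as they did not in Rps27rt. The plasma cell sums were 5.02 to 5.94 CPM in Control and 6.98 to 7.67 CPM in CUMS. Those of eosinophils or basophils were 26.9 to 28.4 CPM in Control and 31.4 to 33.5 CPM in CUMS. Of all genes tested, 22.9% had no overlap between groups. The part of any of these lists in the Rps27rt value was not tested.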

How the data were processed

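RNA abundance was measured in 3 Control and 3 CUMS libraries. The authors deposited 1 whole number per gene and library, taken here as an estimated count, because the values 4, 8, 12 and 16 were in excess over neighbouring values by factors of 1.89, 1.66, 1.41 and 1.38. Tools listed in the submitters' processing notes are HISAT2 2.1 with mm10, featureCounts 1.6.4, cutadapt 1.16.5, bcl2fastq 2.19 and DESeq2 2.11.40.6. How reads that match several loci were divided is not stated there. Libraries held 19711364 to 27439390 read-pair equivalents.

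The deposited estimated counts entered edgeR 4.0.16 (R 4.3.3) with filterByExpr, TMM scaling and its quasi-likelihood test (group alone in the model). Adjusted p-values are Benjamini-Hochberg over all genes tested, at 0.05. SE come from the F statistic. Single values per library used exact two-sided permutation tests, which cannot go below p = 0.1. Coordinates, lengths and coding sequences come from GENCODE M21 (GRCm38), using the shortest principal coding transcript. Near-identical loci were found with blastn 2.17.0. The fit was tested on simulated data. DESeq2 1.42.0 was an alternative. The members and all lists were chosen with earlier results of these data known. The pairs (Rpl37rt, Rpl6l, Rps3a2 and Rps3a3 with their parents) and the summing of families were added after the data were seen. Named members are those past the threshold or at an unadjusted p under 0.05, all copies with parents, the 5 highest and 5 lowest per length, the 5 largest rises and falls among members of at least 10 CPM, and those of the role lists. Rpl10a and Rpl41, and the members under 50% of their family, were named after their values were seen. The labels do not say whether replicate numbers pair the libraries, and the main fit did not pair them.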

Additional observations from a re-analysis of the deposited data

How the results depend on the processing

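The alternatives were RLE size factors, 2 other low-count filters, DESeq2, a replicate block, values divided by 4, each library left out in turn and, added after seeing the data, copies and pseudogenes summed with parents. The number of genes called was 710, and it was 462 without a low-count filter, 1154 with DESeq2 and 305 to 697 with a library left out. Of the members, 1 was called, and 2 with a mean CPM of at least 1 (Rps27a and Rps27rt), 2 with DESeq2 (Rpl17 and Rps27rt), 2 with values divided by 4 (Rps27a and Rps27rt), 0 with copies summed, and 1 to 3 with a library left out. The sum of Rps27 and Rps27l, -0.28 and not called, ranged from -0.48 to -0.18 with a library left out and passed at -0.48 (adjusted p = 0.026) without CUMS replicate 1. The cause was not tested. Of 689 alternative values of the 54 named members, 681 kept their side of the threshold and 8 passed it, and no called value changed sign. With the replicate block, 931 genes and 1 member (Rps27rt) were called. Same-numbered libraries did not deviate together (correlations of -0.03 to 0.01). With so few libraries this cannot show whether the numbers pair them. Members under about 1 CPM (Rps3a2, Rps3a3 and Rpl3l) have SE of 0.33 to 0.55, which limits what their fold changes show.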
